A study of Mus musculus with 39 samples.

Results

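Activin A was compared with its untreated control at day 5 of differentiation of mouse ESCs into definitive endoderm (DE), on 6 of the 39 miRNA arrays of the series. The 3 treated samples and the 3 control samples were chosen by their labels. The ESCs were of the TCL-1 line and were kept on mouse embryonic fibroblast feeders that were removed by plating on gelatin before differentiation. Both groups were grown on collagen in RPMI 1640 with B27 and, per the labels, sodium butyrate, the treated cells with 100 ng/ml Activin A for 5 days and the control cells in the same medium with no growth factor. Every sample, control included, therefore came from the same starting line and basal medium. The labels do not say whether the 3 samples of a group came from separate cultures. The p-values therefore measure only the spread between samples within groups, which may be technical. In the shared fit this spread also comes from the Wnt3a and the Activin A plus Wnt3a arrays of the same day.

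Activin A is a TGF-beta family ligand that signals through Smad2 and Smad3 and directs ESCs through a mesendoderm state towards DE, while ESCs left without such signals in serum-free medium with B27 tend towards neural fates. miRNAs are short RNAs that lower the output of target mRNAs, chosen mainly by pairing with the seed, bases 2 to 8 of the miRNA. The miR-200 family holds cells in an epithelial state by repressing Zeb1 and Zeb2, the cluster from miR-290 to miR-295 and the cluster of miR-302 and miR-367 are hallmarks of pluripotent cells, and miR-124, miR-9 and miR-219 are hallmarks of neural cells. The arrays hold no mRNA, so the DE markers Sox17 and Foxa2 were not measured in these samples.

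The mature sequences of the miRNAs on which the comparison turned are given first, from RefSeq (build GRCm38.p6), 5′ to 3′ and in lower case with the seed in capitals. Of the 91 miRNAs that differed between the groups, 69 had a sequence in that table. The first set shows 5 miRNAs of the miR-200 family, each higher with Activin A. It has 2 seeds that differ at 1 base and lies at 2 sites, chr4:156053916-156055706 for miR-200b, miR-200a and miR-429 and chr6:124717917-124718346 for miR-200c and miR-141, both on the minus strand.
miR-200a: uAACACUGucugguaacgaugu
miR-141: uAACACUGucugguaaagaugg
miR-200b: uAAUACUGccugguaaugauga
miR-200c: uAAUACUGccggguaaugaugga
miR-429: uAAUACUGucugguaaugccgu

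The second set shows miRNAs that share the seed of the pluripotency clusters, which were higher with Activin A, beside miR-20a and miR-93, which were lower. The seed of the last pair is the same run of bases shifted by 1 position. miR-291a-3p, miR-294 and miR-295 lie at chr7:3218932-3220837 and miR-302d at chr3:127545406-127545800, both on the plus strand.
miR-291a-3p: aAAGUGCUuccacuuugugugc
miR-294: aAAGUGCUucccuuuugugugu
miR-295: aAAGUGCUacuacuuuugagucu
miR-302d: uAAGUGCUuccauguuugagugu
miR-20a: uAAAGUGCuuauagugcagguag
miR-93: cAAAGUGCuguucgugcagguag

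The third set shows near relatives that went in opposite directions. miR-99a and miR-100 were lower with Activin A and miR-99b was higher, miR-125b-5p was lower and miR-125a-5p higher, and miR-181a and miR-181b were lower and miR-181c higher. Within each of these 3 groups the seed is the same. The miR-181c call depended on the processing, as given with its levels below.
miR-99a: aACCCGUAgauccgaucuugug
miR-100: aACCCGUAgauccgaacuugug
miR-99b: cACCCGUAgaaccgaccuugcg
miR-125b-5p: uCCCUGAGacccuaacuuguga
miR-125a-5p: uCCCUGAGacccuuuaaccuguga
miR-181a: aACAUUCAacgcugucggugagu
miR-181b: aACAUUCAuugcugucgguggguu
miR-181c: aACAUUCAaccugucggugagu

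The levels given here are log2 values of the total signal of a miRNA after quantile normalization. They have a floor at a log2 level of 1. Undetected miRNAs stand at that floor, and so do 9 to 28 detected miRNAs on each Activin A and control array of day 5. A fold given as at least is taken against the floor. It is a lower bound only where the signal of the undetected miRNA was no higher than the floor, which was not tested. Each array carried 611 mouse miRNAs. Between 314 and 333 were detected with Activin A and between 315 and 324 in control, a mean of 327 ± 11.0 (SD, n = 3) against 319 ± 4.51 (SD, n = 3), a difference of 7.33 with p = 0.4 in an exact two-sided permutation test, whose smallest possible p is 0.1. The signals summed over detected miRNAs before normalization were 119614 to 131728 with Activin A and 84618 to 87248 in control, 1.44-fold apart with no overlap. All control arrays and Activin A replicates 1 and 2 lay on 1 slide, and Activin A replicate 3 lay on another. Each replicate of these 2 groups differed from the mean of its other replicates by 0.13 to 0.18 in root mean square log2 level. This covers only the 142 miRNAs detected on all 39 arrays, so it leaves out the low levels. The 3 Wnt3a arrays in the same fit lay farther apart, by 0.61 to 1.13, with replicate 1 the farthest.

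Of 358 miRNAs tested, 91 differed at an adjusted p under 0.05 and by more than 2-fold, 25.4% of those tested. Of these 49 were higher with Activin A and 42 were lower, 13.7% and 11.7%. A miRNA that passed both criteria in limma's moderated test with Benjamini-Hochberg adjustment is called changed below. In 91 of the 91 the groups did not overlap, which was also so for 73.2% of all miRNAs tested. Another 43 passed the adjusted p but differed by less than 2-fold, and the median difference over all tested was -0.02 on the log2 scale. The fold was over 8 for 17 changed miRNAs, 9 higher and 8 lower. Within the slide that held the controls, with 2 Activin A arrays, 90 of the 91 were still called. Without Wnt3a replicate 1 the count was 104, and all 91 were among them. Without any scaling between arrays, an alternative added after the summed signals were seen, the count was 77, of which 54 were higher and 23 lower, so the share of higher calls went from 53.8% to 70.1%, while the median of all tested went to 0.22. With normexp background correction 23 miRNAs were called, 21 of them among the 91. These calls held 4 members of the miR-200 and miR-205 list, 5 of the cluster from miR-290 to miR-295, 5 of the miR-302 and miR-367 cluster, 3 of the miR-17-92 clusters, 2 neural miRNAs, 2 of the miR-99, miR-100 and miR-125 list and 1 of the Dlk1-Dio3 cluster, and 0 of the other lists.

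**Figure D1:**
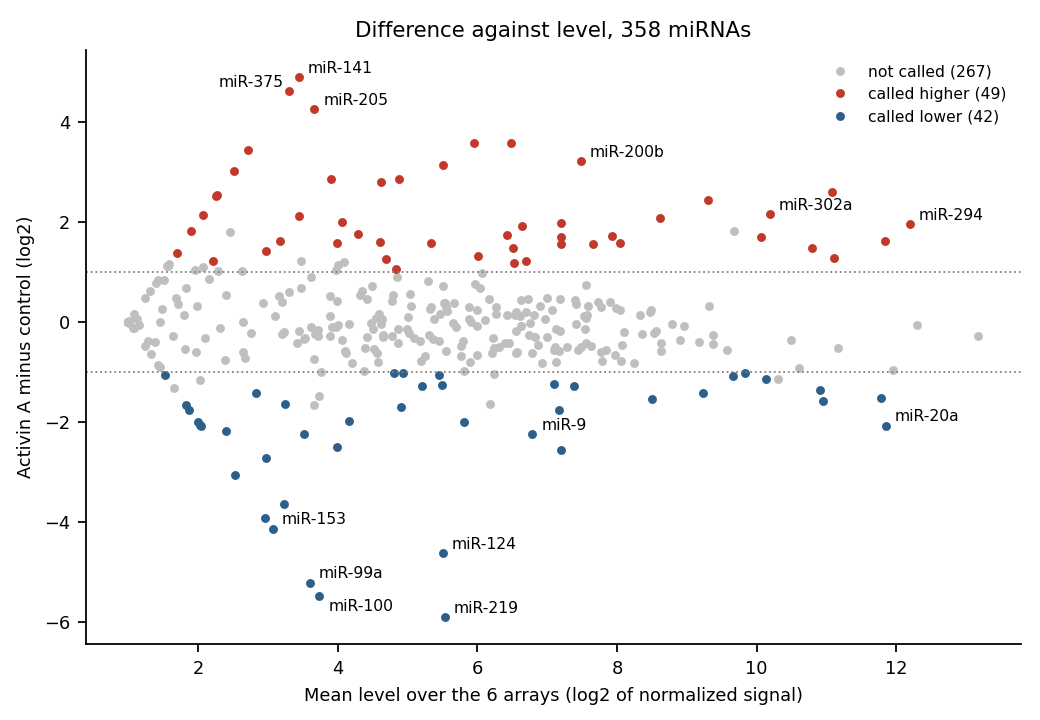
Difference in log2 level between Activin A and control at day 5 (vertical axis) against the mean log2 level over the 6 arrays (horizontal axis), 1 point per miRNA tested, with red for higher and blue for lower calls and dotted lines at a 2-fold difference. The 49 higher and 42 lower calls spread over the whole range of levels, and the straight edges at low levels come from the floor.

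Of the 91 changed miRNAs, 74 belong to the 21 lists of miRNA families and cell type markers that are described below, by role. Their differences are drawn in the plot by miRNA list.

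**Figure D2:**
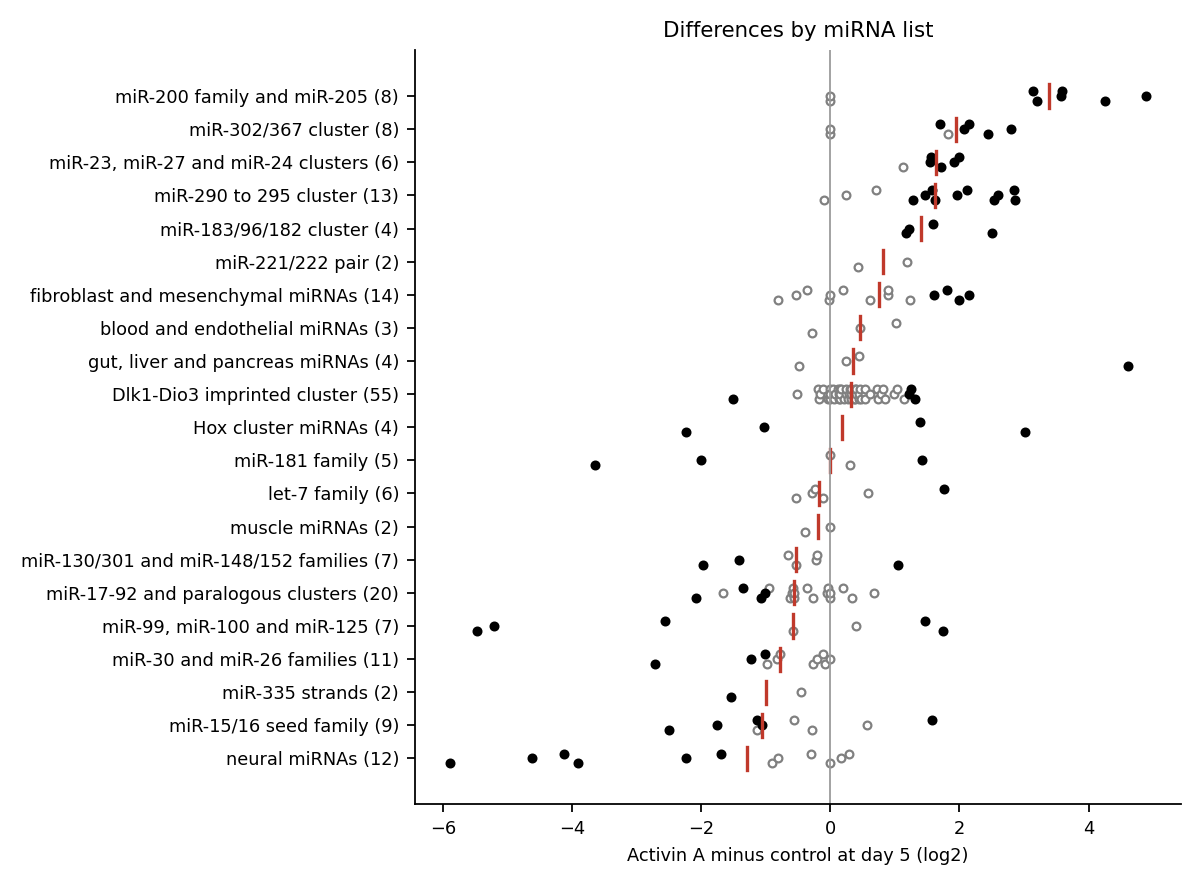
Difference in log2 level between Activin A and control at day 5 for the tested members of each list, with the number tested in brackets. Filled points are changed miRNAs, open points are not, and red bars are medians, which run from 3.39 for the miR-200 family with miR-205 to -1.30 for neural miRNAs.

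The epithelial miRNAs stood highest. Of 8 tested members of the list of the miR-200 family and miR-205, 6 were higher with Activin A and 0 were lower. This was a share of 75% beside the 25.4% of all tested, and the median difference was 3.39. The other 2, miR-200a* and miR-200b*, were at the floor on all 6 arrays, although each was detected on 2 Activin A arrays and on no control array. miR-200b was at 9.07, 9.07 and 9.13 with Activin A and at 5.92, 5.84 and 5.89 in control, higher by 3.21 ± 0.12 (SE, adjusted p = 4.1e-08 by limma). miR-200c, from the other site, was at 7.10, 7.10 and 7.05 against 3.92, 3.96 and 3.94, higher by 3.14 ± 0.11 (SE, adjusted p = 3.9e-08 by limma). The samples of each group lay within 0.1 of one another while the groups were 8-fold or more apart.

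miR-200a was higher by 3.58 ± 0.26 (SE) and miR-429 by 3.57 ± 0.13 (SE), so the 3 miRNAs of the chromosome 4 site and miR-200c differed by similar amounts. miR-141 was at 5.89, 6.03 and 5.75 with Activin A, and in control it was detected on 1 of 3 arrays and at the floor on all. miR-205, which also represses Zeb1 and Zeb2, was at 5.82, 5.71 and 5.84 against 1.00, 2.62 and 1.00, detected on 2 control arrays. Their differences of 4.89 ± 0.38 (SE) and 4.25 ± 0.47 (SE) therefore depend on the floor. These 2 were named after their values were seen.

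Among 10 miRNAs typical of gut, liver and pancreas, 4 were tested and 1 changed, a share of 25% beside the 25.4% of all tested, and with normexp background correction 0 did. This was miR-375, abundant in pancreatic islets and gut epithelium, which was at 5.63, 5.55 and 5.65 with Activin A and undetected on the 3 control arrays. Its level was thus 24.5-fold above the floor at which control stands (adjusted p = 4.2e-06 by limma). The organ miRNAs miR-122 of liver, miR-192, miR-194 and miR-215 of gut, and miR-216a and miR-217 of pancreas were undetected on all 6 arrays. miR-218 was at 7.24, 7.20 and 7.12 against 6.93, 6.97 and 6.95 (difference 0.24 ± 0.29, SE, adjusted p = 0.60 by limma), and miR-148a differed by 0.45 ± 0.42 (SE, adjusted p = 0.47 by limma). miR-216b, detected on the control arrays alone, differed by -0.49 and was not called, but it was called lower with quantile normalization within each day, at -1.92, and with scaling to the 75th percentile of all miRNAs, at -1.27.

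The cluster of miR-183, miR-96 and miR-182, best known from sensory epithelia, was higher in 4 of 4 tested members. Of all miRNAs tested 25.4% changed, and the median difference of the cluster was 1.40. With normexp background correction 0 of the 4 were called and the median was 0.44. miR-96 was at 8.87, 8.82 and 8.82 with Activin A against 7.27, 7.24 and 7.24 in control, and miR-182 and miR-183 were higher by 1.22 ± 0.24 (SE) and 1.17 ± 0.27 (SE). miR-183*, the other strand of the miR-183 hairpin, was at 3.58, 3.21 and 3.74 with Activin A and at the floor in control although detected there, so its difference of 2.51 depends on the floor.

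**Figure D3:**
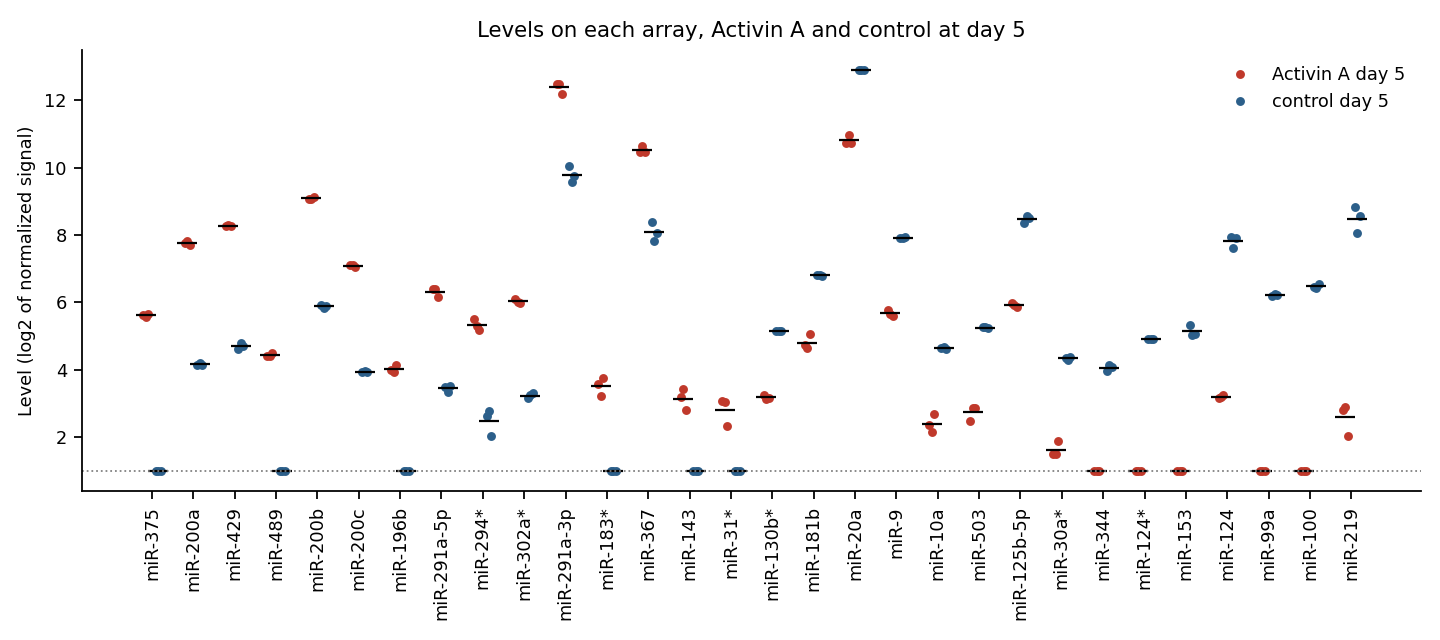
Log2 level on each of the 6 arrays (points) and group means (black bars) for the 10 largest increases and 10 largest decreases among miRNAs detected on all 6 arrays, and for the 5 in each direction with the largest lower bound among those undetected in 1 group. Red is Activin A, blue is control, and the dotted line is the floor at 1. All 30 were chosen among changed miRNAs, in 91 of 91 of which the groups did not overlap. Their separation is therefore no result, and groups did not overlap in 73.2% of all miRNAs tested. Relative to control, miR-219 and miR-100 lie lowest on the right and miR-375 highest on the left.

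The miRNAs of pluripotent cells were also higher with Activin A. In the miR-290 to miR-295 cluster, the most abundant miRNA cluster of mouse ESCs, 10 of 13 tested members were higher and 0 were lower. Its share of 76.9% stood beside the 25.4% of all tested, and the median difference was 1.61. miR-294 was at 13.32, 12.89 and 13.32 against 11.13, 11.27 and 11.27, higher by 1.96 ± 0.21 (SE, adjusted p = 5.6e-05 by limma). miR-291a-3p was at 12.48, 12.48 and 12.18 against 10.04, 9.57 and 9.74, higher by 2.60 ± 0.18 (SE). Both strands were higher for each of miR-291a, miR-292, miR-293, miR-294 and miR-295, whereas the 2 strands of miR-290 and miR-291b-5p differed by 0.24, 0.71 and -0.09 and were not called. The summed normalized signal of the cluster was 26574 to 29526 with Activin A and 7934 to 8627 in control, out of 91881 over all miRNAs tested on each array.

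In the miR-302 and miR-367 cluster, abundant in epiblast-stage pluripotent cells, 5 of 8 tested members were higher and 0 were lower. That was 62.5% beside the 25.4% of all tested, with a median of 1.95. miR-302a was at 11.27 on all 3 Activin A arrays and at 9.13, 9.07 and 9.13 in control, higher by 2.15 ± 0.11 (SE, adjusted p = 3.5e-07 by limma). miR-367, which has another seed, was at 10.47, 10.64 and 10.47 against 8.39, 7.81 and 8.07, higher by 2.44 ± 0.39 (SE). miR-302b, at 10.64, 10.47 and 10.64 against 8.66, 8.82 and 8.82, was not called in the shared fit (difference 1.82 ± 0.85, SE, adjusted p = 0.13 by limma) but was called without Wnt3a replicate 1 (adjusted p = 4.9e-07 by limma), an array of neither group. The other 2, miR-302b* and miR-302c*, were at the floor in both groups. They were nonetheless detected on 2 and 3 Activin A arrays and on no control array.

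The levels of these miRNAs were then followed over the days. miR-294 was at 13.32 ± 0.00 (SD, n = 3) in undifferentiated ESCs, at 13.18 ± 0.25 (SD, n = 3) after 5 days of Activin A, and at 11.22 ± 0.08 (SD, n = 3) in control at day 5. miR-302a went from 9.68 ± 0.05 (SD, n = 3) in ESCs to 11.27 ± 0.00 (SD, n = 3) with Activin A at day 5, while control at day 5 was at 9.11 ± 0.03 (SD, n = 3). miR-200b went from 7.20 ± 0.07 (SD, n = 3) to 9.09 ± 0.03 (SD, n = 3) with Activin A and to 5.88 ± 0.04 (SD, n = 3) in control, so the means of the 2 groups lay on opposite sides of the ESC mean. The ESC arrays were on another slide and in another scan session than all day 5 arrays, so stage cannot be told apart from slide and session in these levels. An SD of 0.00 arises because quantile normalization gives the same value to the same rank on each array.

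**Figure D4:**
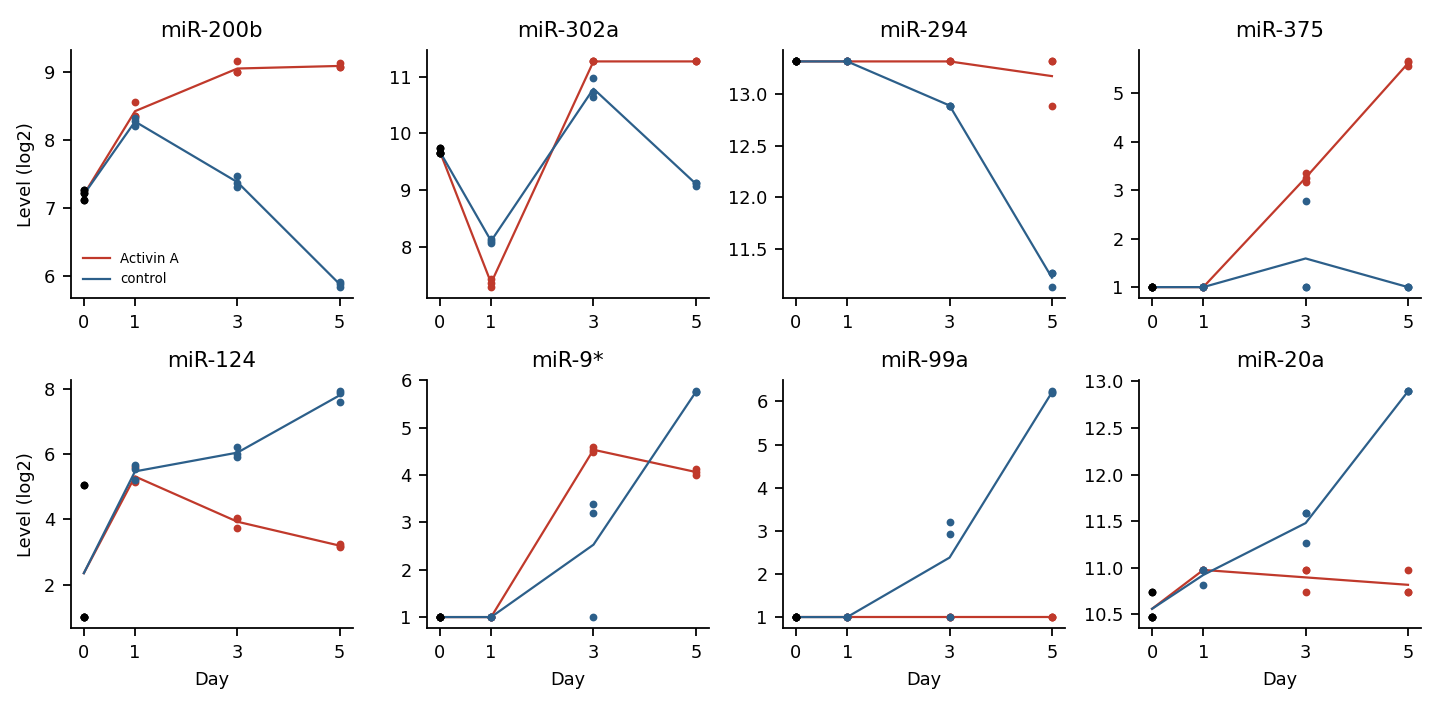
Log2 level on each array (points) and group means (lines) over days for Activin A (red) and control (blue), with undifferentiated ESCs at day 0 in black, for 8 miRNAs. miR-200b, miR-302a, miR-294 and miR-375 were higher with Activin A at day 5, and miR-124, miR-9*, miR-99a and miR-20a were lower. Points at 1 are at the floor. The lowest detected signal was highest at days 0 and 1 and at day 3 was still above that of day 5. Low levels on those earlier days therefore have no measured value.

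The neural miRNAs were the list with the lowest median, -1.30. Of 12 tested members 6 were lower with Activin A and 0 were higher, a share of 50% beside the 25.4% of all tested. With slide as a block 4 were lower, since miR-9 and miR-9* lost the call (adjusted p = 0.0697 and 0.0781 by limma), and with normexp background correction 2 were lower. miR-219, known from oligodendrocytes, was at 2.81, 2.90 and 2.04 with Activin A and at 8.82, 8.07 and 8.57 in control, lower by 5.90 on the log2 scale with an SE of 0.50 (adjusted p = 1.4e-05 by limma). miR-124, the most abundant miRNA of neurons, was at 3.14, 3.19 and 3.25 against 7.93, 7.61 and 7.90, a difference of -4.62 ± 0.15 (SE, adjusted p = 2.4e-08 by limma). Its other strand miR-124* and the neuronal miR-153 were detected on the 3 control arrays and on no Activin A array, at least 15.0-fold and 17.6-fold lower.

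miR-9, abundant in neural progenitors, was at 5.77, 5.65 and 5.58 with Activin A against 7.90, 7.90 and 7.93 in control, and miR-9* was at 4.13, 3.99 and 4.07 against 5.75, 5.75 and 5.77. Their differences of -2.24 and -1.69 (adjusted p = 0.026 and 0.033 by limma) lost the call when any 1 of the 6 arrays was left out, with adjusted p of 0.0597 to 0.0824, and were called when the 6 arrays were fitted alone. miR-9 and miR-9* thus remained well detected with Activin A while miR-219 and miR-124 were close to the floor. The members not called lay between -0.90 for miR-7a* and 0.29 for miR-7a, and miR-132, miR-137, miR-138, miR-138* and miR-129-5p were undetected on all 6 arrays. The summed normalized signal of the neural list was 221 to 276 with Activin A and 996 to 1197 in control. In cell mixtures such as these, fewer cells of a type and less RNA per cell cannot be told apart.

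The miR-99, let-7 and miR-125 miRNAs come from paralogous transcripts. At chr17:17830194-17830840, miR-99b, let-7e and miR-125a-5p were higher with Activin A, while the other strands miR-99b* and miR-125a-3p differed by 0.39 and -0.57 and were not called. miR-99b was at 7.34, 7.22 and 7.20 against 5.71, 5.82 and 5.80 (difference 1.47 ± 0.31, SE), and miR-125a-5p was at 7.36, 7.32 and 7.22 against 5.46, 5.61 and 5.60 (difference 1.74 ± 0.12, SE, adjusted p = 3.0e-06 by limma). let-7e was at 5.18, 5.05 and 5.28 against 3.30, 3.30 and 3.65, higher by 1.75 ± 0.59 (SE, adjusted p = 0.044 by limma). The let-7e call was lost in 9 of 12 fits that left out 1 array, with adjusted p of 0.064 to 0.11 by limma. Each fit without an Activin A or control array was among them. The call was kept in each fit without a Wnt3a array, and when the Activin A and control arrays were fitted alone. It was also lost with slide as a block (adjusted p = 0.106 by limma) and when scaled to the 75th percentile of all miRNAs (difference 1.30, adjusted p = 0.144 by limma).

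miR-100, miR-99a and miR-125b-5p, encoded elsewhere, were lower. miR-100, on chromosome 9, was at 6.45, 6.41 and 6.55 in control and undetected on all Activin A arrays, at least 44.4-fold lower (adjusted p = 1.4e-08 by limma). miR-99a, at 6.19, 6.23 and 6.21 in control, was likewise undetected and at least 37.1-fold lower (adjusted p = 4.2e-09 by limma). miR-125b-5p, encoded on chromosomes 9 and 16, was at 5.98, 5.92 and 5.86 against 8.36, 8.57 and 8.52, a difference of -2.56 ± 0.13 (SE). As the sequences above show, miR-99a differs from miR-100 at 1 base and from miR-99b at 4, and miR-125a-5p differs from miR-125b-5p at 3. How far the probes tell such relatives apart was not tested. Of the other let-7 miRNAs, let-7a, let-7c and let-7f differed by -0.29, 0.59 and -0.54 and were not called, and 10 of the 16 let-7 names on the array were undetected on all 6 arrays.

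The Hox cluster miRNAs also split. miR-196b, whose targets include Hox genes, was at 3.99, 3.94 and 4.13 with Activin A and undetected in control, at least 8.12-fold higher (adjusted p = 4.1e-08 by limma). miR-196a was at 2.33, 2.08 and 2.75 and likewise undetected in control, at least 2.61-fold higher, and it was not above a floor at a signal of 8. miR-10a was at 2.36, 2.15 and 2.67 against 4.63, 4.67 and 4.61, a difference of -2.25 ± 0.36 (SE), and miR-10b, which differs from it at 1 base, by -1.02 ± 0.29 (SE). The miR-10b call was lost in 5 of 12 fits without 1 array, those without Activin A replicate 1, 2 or 3 or control replicate 2 or 3, with adjusted p of 0.054 to 0.066. Its difference was also under 2-fold when scaled to the 75th percentile of all miRNAs (-0.79) and with quantile normalization within each day (-0.81). The same held without scaling (-0.57) and with normexp background correction (-0.14), while quantile normalization of log2 signals gave -1.31.

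In the miR-181 family, which shares 1 seed, miR-181a was at 1.77, 1.46 and 1.00 with Activin A against 5.02, 5.07 and 5.09 in control, and was detected on 2 of 3 Activin A arrays. miR-181b was at 4.73, 4.63 and 5.05 against 6.82, 6.82 and 6.78. In contrast miR-181c was higher, at 3.65, 3.58 and 3.81 against 2.20, 2.43 and 2.15 (difference 1.42 ± 0.14, SE, adjusted p = 4.1e-05 by limma), and miR-181d, its cluster partner, differed by 0.30 ± 0.27 (SE, adjusted p = 0.45 by limma). The miR-181c call was lost with quantile normalization of log2 signals (difference 0.98), a floor at a signal of 8 (0.68) and normexp background correction (0.09). Of these alternatives, miR-181a and miR-181b lost their calls only with normexp. miR-181c differs from miR-181a at 1 base and from miR-181b at 5.

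The miR-17-92 clusters are known for promoting proliferation. In the miR-17-92 and paralogous clusters, 4 of 20 tested members were lower, a share of 20% beside the 25.4% of all tested, 0 were higher, and the median was -0.57. miR-20a was at 10.74, 10.98 and 10.74 against 12.89 on all control arrays, miR-92a was lower by 1.35 on the log2 scale with an SE of 0.17, and miR-93 and miR-25 by 1.07 and 1.01. The miR-25 call was lost without Activin A replicate 2, control replicate 1 or control replicate 3, where its difference was under 2-fold. The size of these calls rested on the normalization. Scaled to the 75th percentile of all miRNAs on each array instead, miR-20a differed by -0.61 and miR-92a by -0.49, and 0 of 20 members were called. The abundant miR-19b, at 12.18, 12.18 and 12.48 against 12.64, 12.18 and 12.18, differed by -0.05 ± 0.15 (SE, adjusted p = 0.88 by limma).

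The list of the miR-15/16 seed family, which restrains cyclins, also holds other strands of its hairpins. Of its 9 tested members 4 were lower and 1 was higher, a share of 55.6% beside the 25.4% of all tested. Among the lower ones miR-16 and miR-322 share a seed, which miR-503 and miR-322* do not have. The median of -1.06, which is the value of miR-322*, went to -0.35 when scaled to the 75th percentile. miR-503 was at 2.48, 2.86 and 2.86 against 5.25, 5.25 and 5.23, and miR-322, its neighbour on the X chromosome at chrX:53054027-53054327, was at 6.28, 6.30 and 6.30 against 8.04, 8.11 and 8.01. They were lower by 2.51 and 1.75 on the log2 scale, and by 2.00 and 1.66 when scaled to the 75th percentile. miR-322*, the other strand, was undetected with Activin A and at least 2.08-fold lower, a call lost without control replicate 3. With a floor at a signal of 8 its difference was 0.0. miR-16 was lower by 1.13 but by 0.35, and not called, with that scaling. The 1 member that was higher was miR-497, at 4.90, 4.76 and 4.67 against 3.32, 3.48 and 2.81, named after its value was seen.

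The miR-23, miR-27 and miR-24 clusters went the other way, with 5 of 6 tested members higher and 0 lower. That was 83.3% beside the 25.4% of all tested, with a median of 1.63. With normexp background correction 0 of the 6 were called and the median was 0.72. miR-24 was at 8.82, 8.77 and 8.77 against 7.10, 7.02 and 7.10, higher by 1.72 ± 0.07 (SE, adjusted p = 4.5e-08 by limma). miR-23a and miR-23b were each higher by 1.55. miR-27a and miR-27b, which differ at 1 base, were higher by 1.99 and 1.92. The miR-27a call (adjusted p = 0.037 by limma) was lost in 9 of 12 fits without 1 array, at adjusted p of 0.055 to 0.088 by limma. Each fit without an Activin A or control array was among them, although the array levels, 8.21, 8.21 and 8.14 against 6.21, 6.21 and 6.19, were far apart. The call was kept in each fit without a Wnt3a array, and when the Activin A and control arrays were fitted alone.

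In the miR-30 and miR-26 families 3 of 11 tested members were lower, a share of 27.3% beside the 25.4% of all tested, 0 were higher, and the median was -0.78. Without scaling between arrays 1 was lower, and with normexp background correction 0 were. miR-30a was at 6.47, 6.51 and 6.47 against 7.72 on all control arrays, and its other strand miR-30a* at 1.49, 1.49 and 1.87 against 4.34, 4.28 and 4.37. miR-30e*, which differs from miR-30a* at 1 base, was lower by 1.02, and miR-26a differed by -0.09 ± 0.09 (SE, adjusted p = 0.54 by limma). In the families of miR-130, miR-301, miR-148 and miR-152 2 of 7 were lower and 1 was higher, 42.9% beside the 25.4% of all tested. miR-130b and miR-130b* were lower by 1.42 and 1.98, miR-130a differed by -0.53 ± 0.17 (SE) and miR-152 was higher by 1.05. The miR-152 call was lost without control replicate 1, where the difference was 0.94 on the log2 scale, and with scaling to the 75th percentile.

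Imprinted loci were examined in 2 lists. miR-335-5p, from an intron of Mest, was at 7.78, 7.69 and 7.72 against 9.27 on all control arrays, lower by 1.54 with an SE of 0.26, and miR-335-3p, the other strand, was at 7.87, 7.87 and 7.78 against 8.29, 8.29 and 8.32 (difference -0.46 ± 0.43, SE, adjusted p = 0.48 by limma). Of 55 tested miRNAs of the Dlk1-Dio3 cluster 3 were higher and 1 was lower, 7.27% against 25.4% over all tested, with a median of 0.32. The 1 lower was miR-494, at 10.81, 11.13 and 11.13 against 12.48, 12.48 and 12.64, which was not called when scaled to the 75th percentile (difference -0.49) or without Activin A replicate 1 or control replicate 3. miR-127, miR-300 and miR-410 differed by -0.19, 0.14 and 0.21.

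Markers of other cells that could be in the culture were examined in 3 lists. Of 14 tested fibroblast and mesenchymal miRNAs 4 were higher and 0 were lower, a share of 28.6% beside the 25.4% of all tested, with a median of 0.75. With normexp background correction 0 were called and the median was 0.07. These were miR-31, at 5.43, 5.35 and 5.46 against 3.70, 4.03 and 3.70, its other strand miR-31*, miR-29b and miR-143. miR-143, typical of smooth muscle and fibroblasts, was at 3.19, 3.43 and 2.81 and undetected in control, at least 4.41-fold higher, while miR-145*, miR-214, miR-214* and miR-21* were undetected on all 6 arrays and miR-145 was detected on 1 Activin A array. miR-21, the most abundant of the list, was at 10.27, 10.27 and 10.38 against 10.74, 10.64 and 10.64 and was not called. The summed normalized signal of the list was 1548 to 1632 with Activin A and 1785 to 1906 in control. The feeder cells are fibroblasts, and their part in these values was not tested. Of 8 muscle miRNAs 2 were tested and 0 called, with miR-1 and miR-206 undetected. Of 11 blood and endothelial miRNAs 3 were tested and 0 called, with miR-142-3p, miR-451 and miR-150 undetected.

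The pair miR-221 and miR-222, which repress the cell cycle inhibitor Cdkn1b, did not pass both criteria. miR-222 was at 4.80, 4.87 and 4.39 against 3.54, 3.37 and 3.58 (difference 1.19 ± 0.45, SE, adjusted p = 0.069 by limma) and was called without Wnt3a replicate 1 or 2 (adjusted p = 0.00021 and 0.031 by limma). miR-338-5p differed by -0.22 ± 0.50 (SE, adjusted p = 0.82 by limma). Outside the lists, 17 miRNAs changed, 3 higher and 14 lower. The rule for naming picked miR-489 and miR-344 from these. miR-489 was at 4.39, 4.42 and 4.49 with Activin A and undetected in control, at least 10.8-fold higher, and miR-344 was at 3.96, 4.13 and 4.07 in control and undetected with Activin A, at least 8.31-fold lower.

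Strands and seeds were then compared among the changed miRNAs. For 69 hairpins both strands were tested. Both strands changed in 13, in each of them in the same direction, 1 strand changed in 14 and neither in 42. Among the 14 with 1 changed strand the other strand was at the floor in 5 and had the same sign in 8, and miR-125a was the 1 whose strands had opposite signs, 1.74 for miR-125a-5p and -0.57 for miR-125a-3p. Of the 69 changed miRNAs with a sequence, 35 shared their seed with at least 1 other, in 14 seed groups. In 9 of these all members changed one way, and in 5 they went both ways. These 5 were the seeds of miR-99/100, miR-125, miR-181, miR-16, miR-322 and miR-497 and miR-25, miR-92a and miR-367. Among the same 69, the base run AAGUGC lay in the seed of 4 higher and 2 lower miRNAs. It lay in the seed of 0.953% of the 1679 mature mouse miRNAs of the RefSeq table. Changed miRNAs without a sequence there, such as miR-302a, could not be counted. Scaled to the 75th percentile of all miRNAs, the 2 lower ones, miR-20a and miR-93, differed by -0.61 and -0.52 and were not called. The 4 higher ones differed by 1.72 to 2.16 with that scaling.

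The effect of Activin A at day 5 was set against its effect at day 3, in a fit of the 24 arrays of both days. Of 359 miRNAs tested, the effect differed for 43 at an adjusted p under 0.05 and by more than 2-fold, 12%, being higher at day 5 for 20 (5.57%) and lower for 23 (6.41%). Of the 43, 39 were also changed at day 5, and for 30 of these the effect had the same sign on both days and was larger at day 5. Without Wnt3a replicate 1 of day 5 the count was 52. Control replicate 1 of day 3 lay on another slide than the other control and Activin A arrays of that day, and with slide as a block the count was 38.

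**Figure D5:**
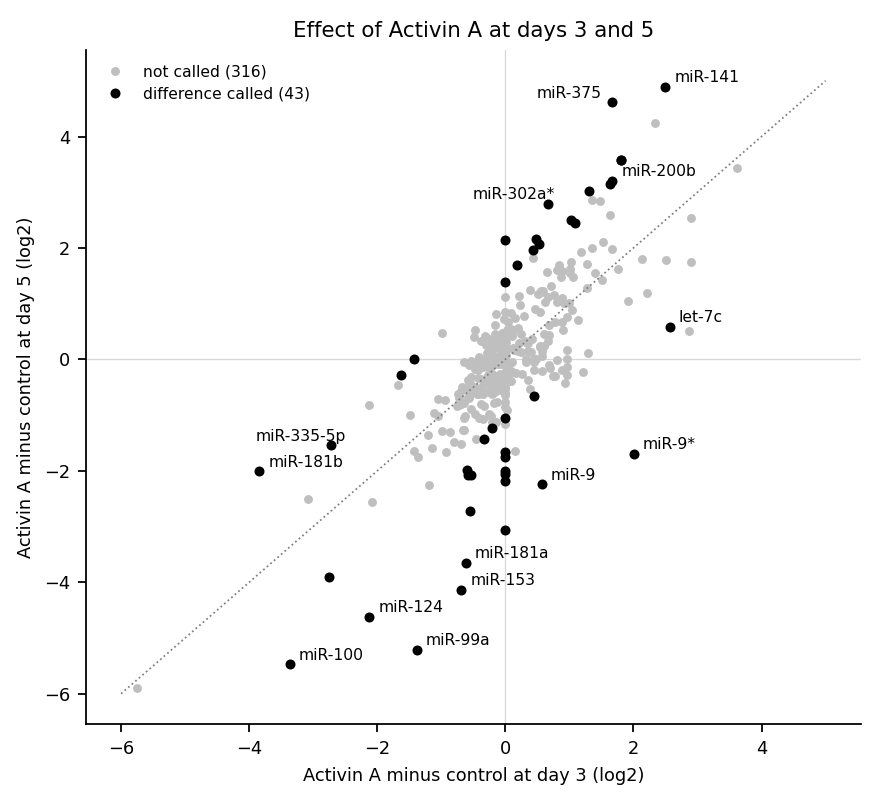
Difference between Activin A and control in log2 level at day 5 (vertical axis) against day 3 (horizontal axis), 1 point per miRNA tested, with black points where the 2 effects differed and a dotted line of equal effects. miR-200b and miR-302a* lie above the line on the right, miR-124, miR-99a and miR-100 below it on the left, and miR-9* is higher with Activin A at day 3 and lower at day 5.

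The miR-200 family went further apart between the days. The effect on miR-200b was 1.67 at day 3 and 3.21 at day 5 (difference 1.54 ± 0.13, SE, adjusted p = 1.0e-07 by limma), with control going from 7.38 ± 0.08 (SD, n = 3) to 5.88 ± 0.04 (SD, n = 3) and Activin A from 9.05 ± 0.09 (SD, n = 3) to 9.09 ± 0.03 (SD, n = 3). Day 3 control and Activin A arrays were all scanned in 1 session and day 5 arrays in another, so levels set across the days cannot be told apart from session, unlike the difference within a day. For miR-302a the effect was 0.48 and 2.15 (difference 1.67 ± 0.14, SE, adjusted p = 4.5e-08 by limma), again with control going down, from 10.79 to 9.11, and Activin A at 11.27 on both days. For miR-375 the Activin A level went from 3.25 ± 0.09 (SD, n = 3) to 5.61 ± 0.05 (SD, n = 3). Control was detected on 1 array of 3 at day 3 and on 0 at day 5, so a change in control was not measured.

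On the lower side, the effect on miR-124 went from -2.12 to -4.62 (difference -2.50 ± 0.19, SE, adjusted p = 2.6e-08 by limma) as control went from 6.05 ± 0.16 (SD, n = 3) to 7.82 ± 0.18 (SD, n = 3). miR-99a and miR-100 were undetected with Activin A on both days while their control levels went up, for miR-100 from 4.37 ± 0.27 (SD, n = 3) to 6.47 ± 0.07 (SD, n = 3). Their differences between the effects, -3.83 and -2.10, therefore rest on control levels set across scan sessions. The lowest detected level on day 3 Activin A arrays was 1.87 to 2.33, above the floor, so the size of these differences also depends on the floor. miR-219 was lower on both days, by 5.75 and 5.90, and the 2 effects were not found to differ (difference -0.15, adjusted p = 0.94 by limma).

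miR-9* was the 1 miRNA whose effects had opposite signs with an adjusted p under 0.05 on each day and a called difference between them. At day 3 it was higher with Activin A, at 4.53 ± 0.05 (SD, n = 3) against 2.53 ± 1.33 (SD, n = 3, detected on 2 of 3 control arrays), and at day 5 it was lower, at 4.06 ± 0.07 (SD, n = 3) against 5.76 ± 0.01 (SD, n = 3). The difference of the effects was -3.70 ± 0.83 (SE, adjusted p = 0.0036 by limma). The undetected day 3 control array stands at the floor, although the lowest detected level on day 3 control arrays was 1.77 to 3.48. The size of the day 3 effect and of this difference therefore depends on the floor. For miR-335-5p the effect was smaller at day 5, -1.54 after -2.73, with Activin A going from 6.00 ± 0.18 (SD, n = 3) to 7.73 ± 0.05 (SD, n = 3). The higher level of let-7e was present on both days, at 2.89 and 1.75, and the effects were not found to differ (adjusted p = 0.36 by limma).

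Addition of Wnt3a to Activin A was compared with Activin A alone at the same day. At day 5, 8 of 358 miRNAs differed on addition of Wnt3a, 2.23%, with 6 higher (1.68%) and 2 lower (0.559%), and 5 of the 8 were among the 91. All 3 arrays with both factors lay on the slide of Activin A replicate 3. miR-196a was at 4.85, 4.82 and 4.82 with both factors, above the 2.33, 2.08 and 2.75 of Activin A alone (difference 2.44 ± 0.14, SE, adjusted p = 9.8e-06 by limma), and miR-196b was higher by 1.73 ± 0.12 (SE). miR-10b was at 6.15, 6.19 and 6.35 with both, at 4.43, 4.39 and 4.45 with Activin A and at 5.37, 5.48 and 5.50 in control, so Activin A alone was the lowest of the 3. miR-9* was lower with both factors by 2.69 on the log2 scale with an SE of 0.53. The members of the miR-200 and miR-205, miR-302 and miR-367 and miR-290 to miR-295 lists differed by -0.30 to 0.53 over 29 tested members, with 0 called.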

How the data were processed

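Total RNA of mouse ESCs and their derivatives was hybridised by the authors to 1-colour Agilent miRNA arrays. The deposited scanner files hold, per the file headers, a background-corrected total signal intensity for each miRNA and a detection flag, from Feature Extraction 10.7.3.1. Agilent's undetected signal is 0.1. The deposited series table of log2 values was not used, because 18 of its 39 columns, those for Activin A with and without Wnt3a, match an array of the other group best. The Activin A results, and the sign of each result for added Wnt3a, therefore rest on the labels of the scanner files. Which labels are right was not tested. Intensities of 611 mouse miRNAs were quantile normalized over the 39 arrays, floored at 2 and log2 transformed. miRNAs detected on at least 2 of 3 arrays of any day 5 group were tested with limma 3.58.1 in R 4.3.3 over the 12 arrays of day 5, with Benjamini-Hochberg adjustment, and were called where the adjusted p was under 0.05 and the difference exceeded 2-fold. A fold against an undetected group was taken against the higher of the floor and the lowest detected signal of any miRNA. On the 6 arrays this was the floor. Such a fold is a lower bound only where the undetected signal was no higher than the floor. The effects at days 3 and 5 were compared by an interaction over 24 arrays. Exact permutation tests used SciPy 1.17.1. Named were the 10 largest changes each way among changed miRNAs detected on all 6 arrays whose groups did not overlap. Also named were the 5 largest bounds each way and up to 4 of the most abundant members of each list. The rest were miRNAs the study singles out, the 5 largest interactions each way and the strand partners of all these. The members and lists were chosen with earlier results of these data known. Scripts were tested on simulated data. The number of arrays limits the precision. Alternatives covered normalization, background, floor, detection filter, arrays fitted, slide, replicate number and each array left out.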

Additional observations from a re-analysis of the deposited data

Results flagged for a closer look

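The effect of Activin A differed between day 5 and day 3 for 43 miRNAs by limma's interaction test with Benjamini-Hochberg adjustment, and those named here are given as the day 5 effect minus the day 3 effect on the log2 scale. It was higher at day 5 for miR-375 (2.95), miR-143 (2.14), miR-302a* (2.13), miR-181b (1.84), miR-200a (1.77), miR-429 (1.77), miR-196b (1.71), miR-302a (1.67), miR-200b (1.54), miR-302c (1.54), miR-294 (1.53), miR-302d (1.52), miR-200c (1.50), miR-183* (1.49), miR-92a* (1.43), miR-196a (1.39), miR-367 (1.35) and miR-335-5p (1.19). It was lower at day 5 for miR-99a (-3.83), miR-9* (-3.70), miR-153 (-3.45), miR-344 (-3.05), miR-181a (-3.04), miR-9 (-2.82), miR-124 (-2.50), miR-30a* (-2.16), miR-100 (-2.10), miR-20a (-1.49), miR-130b* (-1.38), miR-124* (-1.15), miR-301b (-1.11), miR-322* (-1.06) and miR-30a (-1.02). For miR-181b and miR-335-5p the effect was negative on both days and smaller at day 5. Of the 43, 20 were detected on all 12 Activin A and control arrays of the 2 days, and the others include values at the floor. With 3 arrays a group, no test for a single outlying value was made. The spread between replicate arrays is given with the description of the arrays.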

How the results depend on the processing

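No called miRNA changed sign in any alternative, and of the 91 called, 79 were called in each of the 12 fits that left out 1 array. Across the 17 other alternatives, 17 of the 91 were called in all, and 49 when normexp background correction was set aside. With a floor at a signal of 8, 74 of the 91 were called and 87 kept their sign, while the others stood at that floor in both groups. Normexp background correction gave 23 calls, 14 higher and 9 lower, 3 interaction calls and 0 calls for added Wnt3a by limma, where 36 had an unadjusted p under 0.05. Of the 91, 21 were called with it and 91 had the same sign. Without scaling between arrays, an alternative chosen after seeing the data, 23 were called lower and 27 in the interaction. With a floor at 8, 4 were called for added Wnt3a. Leaving out 1 array gave 82 to 104 calls, 46 to 57 higher and 36 to 47 lower, 38 to 52 interaction calls, 6 to 10 calls for added Wnt3a, and a difference of 4.17 to 13.7 in detected miRNAs. Replicate numbers did not pair the samples, with correlations of 0.28, -0.60 and -0.21 between same-numbered Activin A and control arrays over 290 miRNAs, and the replicate block gave 90 calls, 40 for the interaction and 8 for added Wnt3a. The cause of these changes was not tested. Signals near background limit the low miRNAs, and the floor sets the size of their differences.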
